A study of Mus musculus with 12 samples.

Results

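S100 proteins are small calcium-binding proteins, and 10 of their genes were followed through the whole colon of healthy and colitic mice with and without a myeloid deletion of STING. The genes were taken by symbol from a table of 54532 genes: S100a8 and S100a9, whose proteins fill the cytosol of neutrophils, and S100a4, S100a6, S100a10, S100a11, S100a13, S100a14, S100a16 and S100g, which are known from epithelial and stromal cells. The measurement was polyA RNA sequencing, done once for each of 12 mice that fell into 4 groups of 3. The Tmem173fl/fl mice had floxed alleles of Tmem173, the gene of STING, without Cre. Tmem173iΔmye mice carried the same floxed alleles and a tamoxifen-inducible Cre driven from Lyz2, which acts in neutrophils, monocytes and macrophages. All 4 groups, the controls included, had 5 injections of tamoxifen and a C57BL/6N background. Colitic mice of both genotypes had received dextran sulfate sodium (DSS), an epithelium-damaging polymer, in the drinking water over 7 days from an age of 6 to 8 weeks, and the others drank no DSS. Because the whole organ was sampled, fewer cells of a type and less RNA per cell cannot be told apart.

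S100 proteins fold into a pair of calcium-binding EF-hands, mostly act as dimers and change shape when calcium rises, which exposes a surface that grips partner proteins. S100a8 and S100a9 pair as calprotectin, which withholds zinc and manganese from microbes and, once released, can signal through Toll-like receptor 4 and the receptor RAGE. Calprotectin in stool is used clinically as a measure of gut inflammation. The other members work mostly inside cells, at membranes, the cytoskeleton and, for S100g, in the transport of calcium across the absorptive epithelium.

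Library totals ran from 13823237 to 18718915 counts. The 8 epithelium genes (Epcam, Cdh1, Krt8, Krt18, Krt19, Vil1, Cldn3 and Cldn7) had counts in every library, as had the 7 fibroblast genes. The targeted gene Tmem173 was at 14.4 to 24.5 CPM (TMM-scaled counts, which can be compared between libraries) in untreated Tmem173fl/fl and at 14.6 to 21.3 in untreated Tmem173iΔmye colons. In colitis, Tmem173 was at 37.7 to 44.0 CPM in Tmem173fl/fl and at 23.8 to 47.8 in Tmem173iΔmye colons, and the genotypes differed by a log2 fold change of −0.28 (SE 0.26, edgeR adjusted p = 0.602). The whole-organ level of Tmem173 therefore did not separate the genotypes, and it also holds the transcripts of cells in which this Cre is not active. The summed level of exocrine pancreas genes varied widely within each group. It was 102 to 1864 CPM in untreated Tmem173fl/fl and 117 to 980 in untreated Tmem173iΔmye colons. In colitis it was 253 to 3193 CPM in Tmem173fl/fl and 69.1 to 4976 in Tmem173iΔmye colons. Xist was at 1839 CPM in untreated Tmem173fl/fl replicate 3, at 1225 in untreated Tmem173iΔmye replicate 3 and at 1451 in colitic Tmem173iΔmye replicate 5, and at 0.203 to 0.545 CPM in the other 9 libraries. The Y-linked genes Ddx3y, Uty, Eif2s3y and Kdm5d had 0 counts in those 3 libraries. No colitic Tmem173fl/fl library was among them, so values of members without these libraries are given where leaving them out changed a call or moved a value by over 1.5 times.

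Of the members, 9 lie on chromosome 3 (GRCm38), in the order S100a13, S100a14, S100a16, S100a4, S100a6, S100a8, S100a9, S100a11 and S100a10, between positions 90514435 and 93564643. S100g lies on chromosome X, from 162961992 to 162964599. S100a8 (ENSMUSG00000056054, 90668978 to 90670035, plus strand) and S100a9 (ENSMUSG00000056071, 90692632 to 90695721, minus strand) are neighbours 22597 bases apart. S100a14 (90526856 to 90528837) and S100a16 (90537254 to 90543151), neighbours as well, are 8417 bases apart on the plus strand. Between S100a9 and S100a11 (93520488 to 93526287) lie 2824767 bases.

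RefSeq (GRCm38.p6) held promoter entries for 8 of the 10 members, 9 entries in all. The sequences below are the bases before the RefSeq start of the neutrophil pair, of S100a11, the other member that was higher in colitic colons of both genotypes, and of S100g, which moved the other way in Tmem173fl/fl mice. They run from 5′ to 3′ on the gene's own strand, leave out bases that lie in the deposited gene model, and carry in capitals the matches to a C/EBP motif (in S100a8, S100a9 and S100g) or an AP-1 motif (in S100a11).
S100a8 (chr3:90668821-90668977, plus strand): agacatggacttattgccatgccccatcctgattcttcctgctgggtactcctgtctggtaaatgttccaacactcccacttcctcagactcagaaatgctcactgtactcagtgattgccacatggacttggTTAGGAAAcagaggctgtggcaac
S100a9 (chr3:90695722-90695971, minus strand): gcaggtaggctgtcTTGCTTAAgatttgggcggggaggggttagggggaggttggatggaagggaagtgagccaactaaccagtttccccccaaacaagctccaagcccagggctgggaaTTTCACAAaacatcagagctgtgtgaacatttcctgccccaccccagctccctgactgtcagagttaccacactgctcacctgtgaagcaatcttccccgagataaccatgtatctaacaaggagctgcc
S100a11 (chr3:93520246-93520487, plus strand): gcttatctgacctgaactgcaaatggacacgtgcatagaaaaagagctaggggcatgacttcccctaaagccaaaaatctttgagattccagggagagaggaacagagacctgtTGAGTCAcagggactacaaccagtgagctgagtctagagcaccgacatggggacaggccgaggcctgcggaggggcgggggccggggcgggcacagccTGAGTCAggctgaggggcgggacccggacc
S100g (chrX:162964600-162964849, minus strand): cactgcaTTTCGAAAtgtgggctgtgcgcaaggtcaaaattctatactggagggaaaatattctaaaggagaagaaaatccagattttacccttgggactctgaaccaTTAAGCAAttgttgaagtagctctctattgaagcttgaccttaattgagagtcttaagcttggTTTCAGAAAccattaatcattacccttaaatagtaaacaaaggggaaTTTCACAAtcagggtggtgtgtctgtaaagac

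The letters searched, on both strands of the 250 bases before each start, were TTNNGNAA for C/EBP, TGANTCA for AP-1 and TTCNNNGAA for STAT, beside the NF-kB motif. S100a8 held 1 C/EBP match, 117 bases before its start. S100a9 held 2 of them, 236 and 130 bases before its start. S100g held 5, of which 2 overlap each other. C/EBP matches were present in 36.8% of 32851 promoters, so that the matches of S100a8 and S100a9 are common letters. S100a11 held 2 AP-1 matches, 136 and 38 bases before its start, and 1 of the 2 S100a16 entries held 1. AP-1 matches were present in 6.75% of all promoters, NF-kB matches in 1.41% and STAT matches in 7.02%, and the entries of the members held none of the latter pair in these windows. A match is a description of the letters and not of binding.

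Per length of transcript, as deposited FPKM (fragments scaled by transcript length and library total), S100a6 stood first in the untreated colon. It was at 296 ± 47.5 FPKM (SD, n = 3) in Tmem173fl/fl mice, ahead of S100a11 at 180.5 ± 2.03, S100a10 at 173 ± 21.3, S100a16 at 112 ± 34.1 and S100a14 at 57.6 ± 19.5. S100a11 and S100a10 did not differ beyond their spread, and the ranges of S100a6 and S100a11 did not overlap. S100a13 at 19.9 ± 4.32 and S100g at 13.5 ± 11.1 followed, again with overlapping ranges, and S100a9 at 0.755 ± 1.08 and S100a8 at 0.708 ± 1.23 came last of the members with more than a few counts. The order was the same in untreated Tmem173iΔmye colons, from S100a6 at 353 ± 134 FPKM to S100a8 at 0.651 ± 0.342.

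In colitis the order changed. S100a11 stood first in Tmem173fl/fl colons at 354 ± 79.3 FPKM, followed by S100a9 at 272 ± 71.0, S100a6 at 252 ± 84.9 and S100a8 at 143 ± 15.6. The ranges of S100a11, S100a9 and S100a6 overlapped one another. In colitic Tmem173iΔmye colons S100a11 had the highest mean at 425 ± 79.7 FPKM, but its range of 372 to 517 overlapped that of S100a6, 250 to 534, and in replicate 5 S100a6 was the higher. In the order of means S100a9 was sixth of the 10 members at 34.4 ± 23.1 and S100a8 ninth at 20.9 ± 15.

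The share of S100a8 and S100a9 in the summed FPKM of the 10 members showed the same in every library. It was 0.0146%, 0.0173% and 0.476% in untreated Tmem173fl/fl and 0.314%, 0.369% and 0.0556% in untreated Tmem173iΔmye replicates 1 to 3. In colitis it was 37.1%, 35.2% and 32.4% in Tmem173fl/fl replicates 1 to 3, and 6.12%, 8.06% and 0.926% in Tmem173iΔmye replicates 1, 2 and 5. More than 3 in 10 of the FPKM of these genes were therefore calprotectin transcripts in each colitic Tmem173fl/fl colon, and less than 1 in 10 in each colitic Tmem173iΔmye colon.

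**Figure D1:**
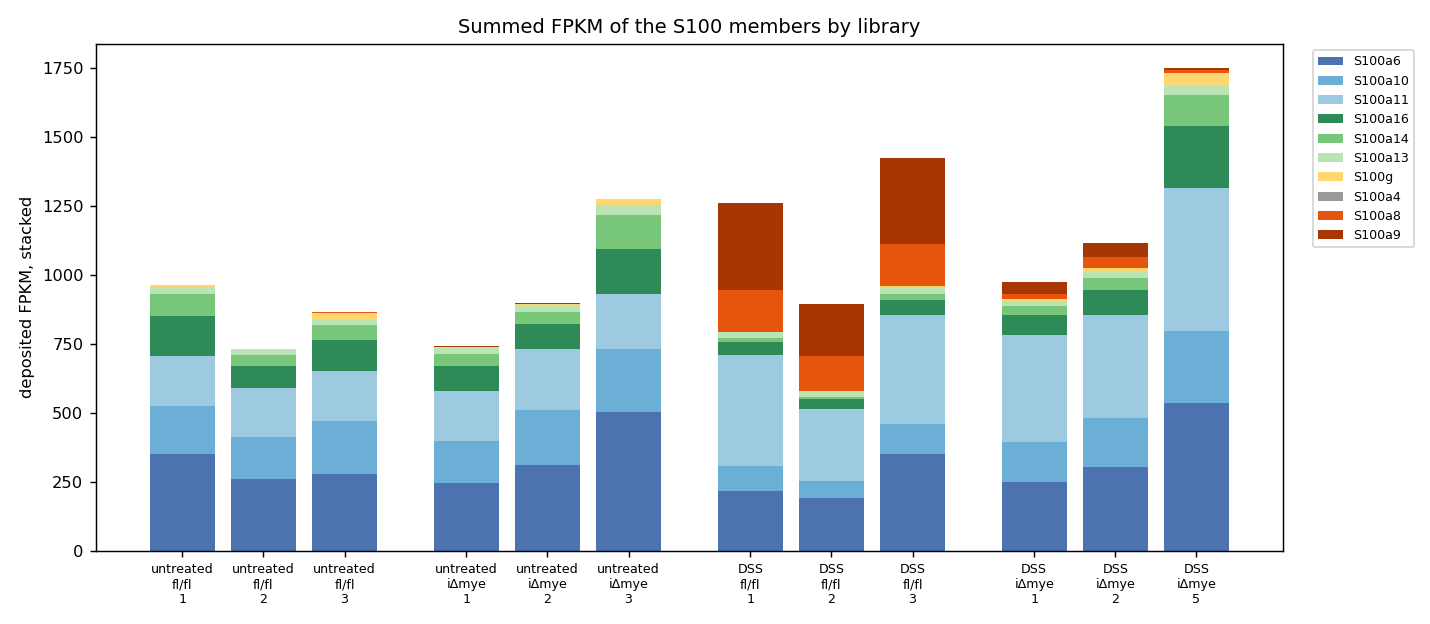
Deposited FPKM of the 10 members stacked by library, with 3 libraries per group and the replicate number under each bar. The orange and brown pieces, S100a8 and S100a9, make up 32.4% to 37.1% of the colitic Tmem173fl/fl bars, 0.926% to 8.06% of the colitic Tmem173iΔmye bars and at most 0.476% of the untreated bars.

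The first comparison asked what DSS did in Tmem173fl/fl mice. A gene was called when its edgeR adjusted p was under 0.05 and its absolute log2 fold change at least 1. Of the 9 members tested, 5 were called, 2 higher (S100a8 and S100a9) and 3 lower (S100a14, S100a16 and S100g), while 22.5% of all genes tested were called, 14.9% higher and 7.61% lower. The median log2 fold change was −0.22 over the 9 members and −0.98 over the 7 other than S100a8 and S100a9, against 0.03 over all genes. Absence of overlap between the untreated and colitic libraries is given below as a description. The share of all genes without overlap is given only for the genotypes in colitis.

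S100a8 had 0, 0 and 24 counts in the untreated Tmem173fl/fl libraries 1 to 3, and 1917, 1814 and 1525 in the colitic ones. On the CPM scale these were 0.501 ± 0.868 and 97.9 ± 10.4. S100a8 rose by a log2 fold change of 7.56 (SE 0.70, edgeR adjusted p = 3.3e-05), with all 3 colitic libraries above all 3 untreated ones. All untreated counts came from replicate 3, and without this library the fitted value was 13.68, which is no bound on the fold.
S100a9 had 1, 1 and 17 counts in the untreated and 3024, 2085 and 2334 in the colitic libraries, or 0.403 ± 0.573 and 140.5 ± 36.3 CPM. It rose by 8.40 (SE 0.57, edgeR adjusted p = 5.1e-06). Of its untreated counts 17 again came from replicate 3, without which the fitted value was 10.87, no bound either. The partner genes thus went from 0 to 24 counts per library to 1525 or more. Per length, S100a9 exceeded S100a8 in every colitic Tmem173fl/fl colon, by ratios of 2.10, 1.53 and 2.03.

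The neutrophil genes moved in the same libraries. All 12 of the list (Csf3r, Cxcr2, Mmp8, Retnlg, Ngp, Camp, Ltf, Ly6g, Trem1, Il1r2, Fpr1 and Fpr2) were called higher, with a median log2 fold change of 5.13. Their summed level was 49.1 to 108 CPM in untreated and 359 to 588 in colitic Tmem173fl/fl colons. Ly6g made up most of the untreated sum, and without it, a choice made after seeing the data, the sums were 7.58 to 11.4 and 264 to 364 CPM. Mmp8 had 0, 1 and 2 counts in the untreated libraries, and Ngp had 0, 0 and 15. Untreated replicate 3 was the library with the highest counts of S100a8, S100a9 and Ngp of its group. S100a8 and S100a9 together came to 0.736, 0.700 and 0.823 CPM per CPM of the other 11 neutrophil genes in colitic Tmem173fl/fl colons, and the part of neutrophil number in their rise was not tested.

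S100a11, a partner of annexin A1 that is found in most epithelia and fibroblasts, was at 95.3, 93.6 and 95.0 CPM in untreated and 204, 133 and 200 in colitic Tmem173fl/fl colons. The groups did not overlap, and the log2 fold change of 0.99 (SE 0.17, edgeR adjusted p = 0.0016) passed the test but fell just short of the fold threshold.
S100a10, which binds annexin A2, carries ion channels to the cell surface and binds plasminogen there, went the other way. Its levels were 217, 188 and 240 CPM in untreated and 106, 74.7 and 132 in colitic colons, without overlap. Its log2 fold change of −0.98 (SE 0.21, edgeR adjusted p = 0.0044) passed the test and again missed the fold threshold narrowly.
These genes lie 28793 bases apart, and their FPKM ratio does not depend on how libraries are scaled. S100a10 stood to S100a11 as 0.959, 0.849 and 1.06 in untreated and as 0.220, 0.236 and 0.278 in colitic Tmem173fl/fl colons.

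The members with mainly epithelial expression fell. S100a14 was at 138, 68.8 and 99.2 CPM in untreated and at 29.6, 15.2 and 36.6 in colitic Tmem173fl/fl colons, a log2 fold change of −1.85 (SE 0.33, edgeR adjusted p = 0.0016). S100a16 was at 245, 131 and 182 CPM and at 74, 54.6 and 83.1, a log2 fold change of −1.33 (SE 0.24, edgeR adjusted p = 0.0018). For both genes every colitic library lay below every untreated one.
S100g, or calbindin-D9k, ferries calcium through absorptive cells and is induced by vitamin D. It had 64, 34 and 203 counts in untreated and 5, 12 and 32 in colitic colons, or 6.62 ± 5.43 and 1.01 ± 1.03 CPM, a log2 fold change of −2.71 (SE 0.77, edgeR adjusted p = 0.0196). The groups were separated by a narrow margin (2.30 against 2.18 CPM), and the call was lost without untreated replicate 3, a library with high Xist (−1.79, edgeR adjusted p = 0.114), without colitic replicate 1 (−2.26, edgeR adjusted p = 0.0516), and under limma on log2(FPKM + 0.1) (limma adjusted p = 0.0740) and on log2(FPKM + 1) (limma adjusted p = 0.0600). Without colitic replicate 3 the value was −3.89, and S100g was called.

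S100a6, a growth-associated protein that binds the ubiquitin ligase partner Cacybp, was at 492, 366 and 385 CPM in untreated and 295, 257 and 469 in colitic Tmem173fl/fl colons. The groups overlapped, with a log2 fold change of −0.22 (SE 0.23, edgeR adjusted p = 0.507). S100a13, which assists the export of Fgf1, was at 12.5 to 18.3 and at 14 to 18.4 CPM (log2 fold change 0.20, SE 0.21, edgeR adjusted p = 0.494).
S100a4, known from fibroblasts and macrophages, had 4 counts over all 12 libraries, 2 in untreated Tmem173iΔmye replicate 3 and 2 in colitic Tmem173fl/fl replicate 2, and did not pass the filter on low values. Of the 584 bases of its gene model, 302 (51.7%) are shared with exons of Gm42674 on the same strand, which had 0 counts. No other member shares exon bases with another gene, and the part of this overlap in the low counts of S100a4 was not tested.

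**Figure D2:**
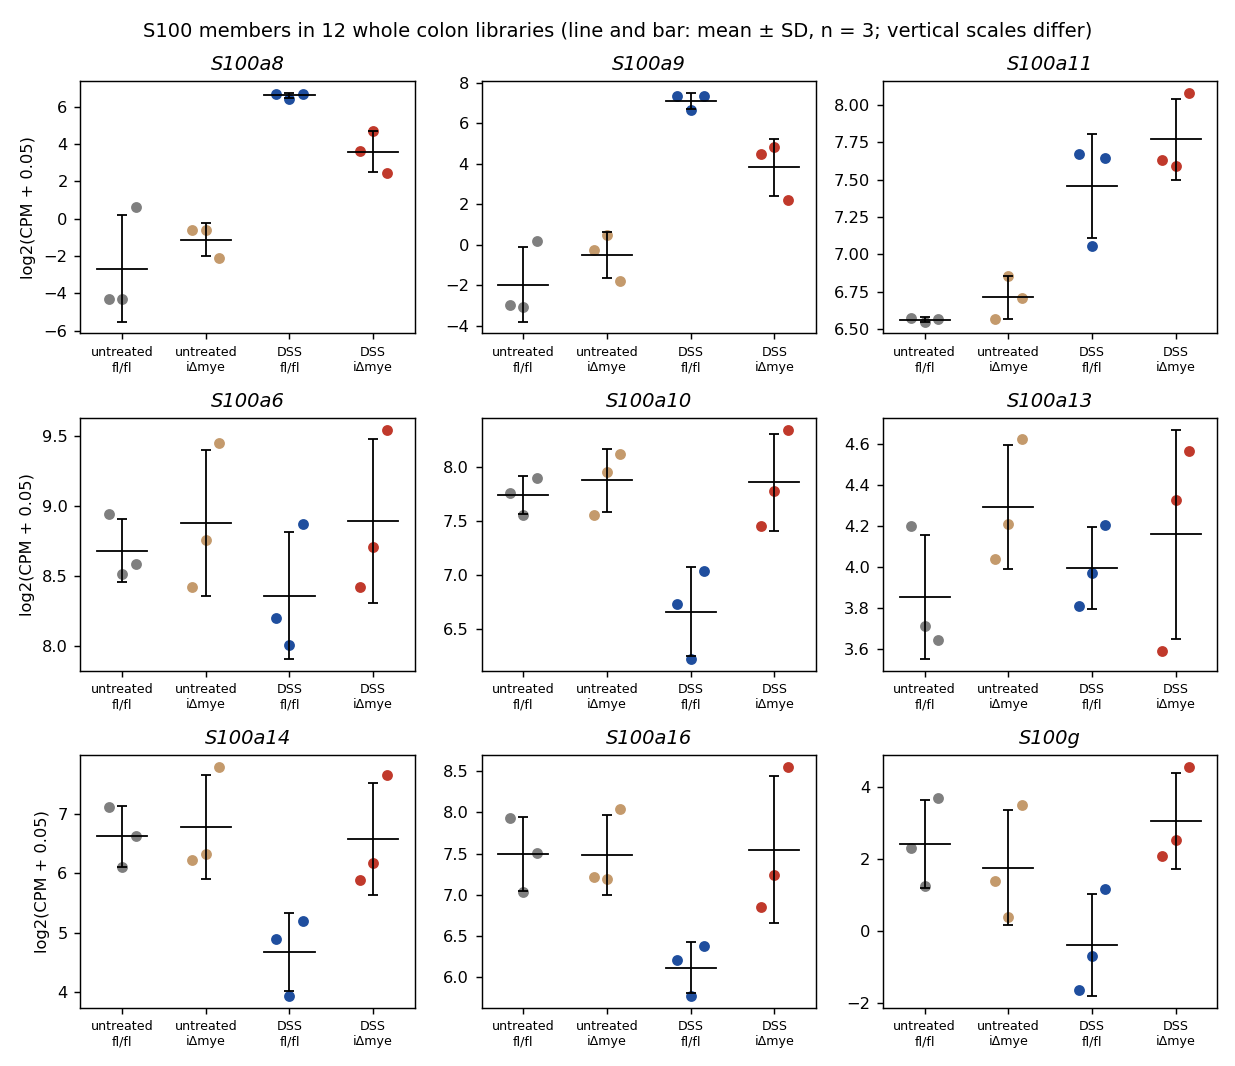
Levels of the 9 members that were tested, as log2(CPM + 0.05), by group, with 1 point per library, the line at the mean and the bar giving the SD (n = 3). S100a8 and S100a9 are high in colitic Tmem173fl/fl colons and lower in colitic Tmem173iΔmye colons, whereas S100a10, S100a14, S100a16 and S100g are lowest in colitic Tmem173fl/fl colons.

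Markers of several cell types moved with these genes. The summed level of the 8 epithelium genes was 11728 to 14733 CPM in untreated and 4355 to 7463 in colitic Tmem173fl/fl colons, with 5 of the 8 called lower, 0 called higher and a median log2 fold change of −1.07. The summed level of the 7 fibroblast genes was 1206 to 1404 and 8186 to 10348 CPM, with 7 of 7 called higher. The summed level of the 8 monocyte and macrophage genes was 291 to 467 and 867 to 1239 CPM, with 5 of 8 called higher, that of the 4 endothelium genes 85.4 to 94.1 and 379 to 525 CPM, with 4 of 4 called higher, and that of the 5 red blood cell genes 4.07 to 6.59 and 152 to 323 CPM, with 5 of 5 called higher.
Set against the epithelium sum of the same library, the members differed among themselves. S100a10 was at 1.33% to 2.05% of this sum in untreated and 1.71% to 1.79% in colitic Tmem173fl/fl colons, and S100a16 at 0.927% to 1.66% and 1.11% to 1.25%, so that both overlapped. S100a14 was at 0.487% to 0.939% and 0.350% to 0.50%, where 1 untreated library lay within the colitic range. S100a11 went from 0.647% to 0.810% up to 2.68% to 3.44%, and S100a6 from 2.59% to 3.34% up to 4.97% to 6.29%, without overlap. S100a13 also did not overlap (0.0925% to 0.124% and 0.236% to 0.359%). The epithelium sum itself fell after DSS, so a gene with an unchanged level rises on this scale. In CPM S100a6 and S100a13 overlapped between these groups (log2 fold changes −0.22 and 0.20), whereas S100a11 did not (0.99). In Tmem173iΔmye colons S100a11 was at 0.704% to 0.837% without and 1.73% to 2.48% with DSS. There S100a6 overlapped, at 2.83% to 4.72% and 3.69% to 6.85%, and so did S100a13, at 0.133% to 0.166% and 0.129% to 0.216%. The part of epithelial and stromal cell numbers in these levels was not tested.

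**Figure D3:**
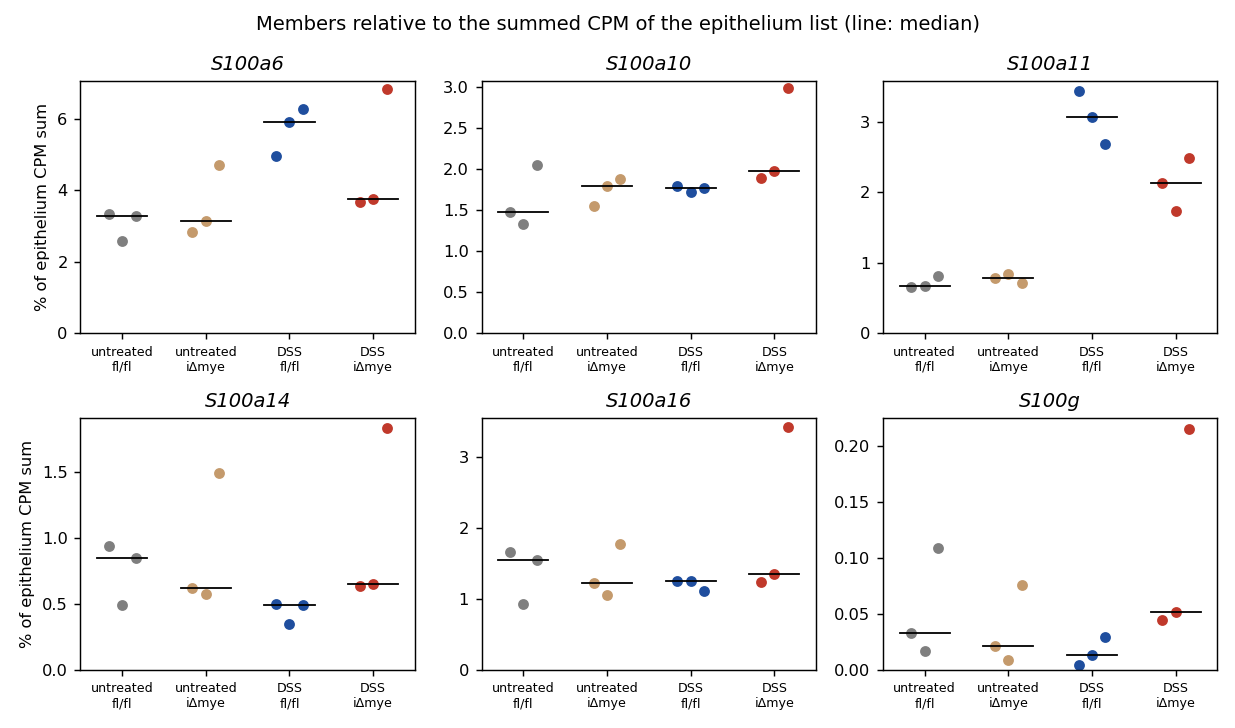
CPM of 6 members as a percentage of the summed CPM of the 8 epithelium genes in the same library, by group, with 1 point per library and the line at the median. On this scale S100a11 and S100a6 are higher in colitic than in untreated Tmem173fl/fl colons, while S100a10 stays between 1.33% and 2.05% in these 6 libraries. The sum itself is lower in the colitic libraries, and in CPM S100a6 overlaps between these groups.

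The second comparison asked the same of Tmem173iΔmye mice. Of the 9 members 3 were called, all higher (S100a8, S100a9 and S100a11), while 2.08% of all genes tested were called, 1.48% higher. The median over the 9 members was 0.19, against 0.02 over all genes.
S100a8 had 10, 10 and 3 counts in the untreated libraries 1 to 3, and 174, 420 and 90 in the colitic libraries 1, 2 and 5, or 0.462 ± 0.244 and 14.7 ± 10.5 CPM. It rose by a log2 fold change of 4.96 (SE 0.66, edgeR adjusted p = 0.0064). S100a9 had 13, 22 and 4 counts and then 306, 450 and 75, or 0.782 ± 0.538 and 18.1 ± 12.2 CPM, a log2 fold change of 4.52 (SE 0.73, edgeR adjusted p = 0.0145). Colitic replicate 5 was the lowest of its group for both genes, and still above every untreated library. Of the 12 neutrophil genes 5 were called higher here (Cxcr2, Mmp8, Ltf, Ly6g and Trem1), and the sum without Ly6g went from between 8 and 13.8 CPM to between 46.1 and 102. The epithelium sum was 12157 to 14839 CPM without and 9301 to 11125 with DSS, and the fibroblast sum 1164 to 1483 and 2342 to 3449. The monocyte and macrophage sum was 266 to 324 and 567 to 783 CPM, and the endothelium sum 91.9 to 104 and 136 to 285. The red blood cell sum overlapped (4.98 to 60.4 and 23.8 to 29.0 CPM). The part of these cell types was not tested.
S100a11 was at 95.0, 116 and 104 CPM in untreated and 198, 193 and 271 in colitic Tmem173iΔmye colons, a log2 fold change of 1.07 (SE 0.21, edgeR adjusted p = 0.0289). Without the libraries with high Xist it was 0.92 (edgeR adjusted p = 0.0699). The calls of all 3 genes were lost when any 1 of the untreated libraries was left out and under limma with either pseudocount, with the same direction each time. That of S100a11 was also lost without colitic replicate 5 (0.92) and with a replicate block (0.90), both under the fold threshold. Without colitic replicate 2 S100a8 had 4.26 and was called, and without untreated replicate 2 S100a9 had 5.12.

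The members that were lower in colitic Tmem173fl/fl colons overlapped between untreated and colitic Tmem173iΔmye colons, and none passed the test. S100a14 was at 74.9, 79.9 and 221 CPM without and 59.2, 72.3 and 200 with DSS (log2 fold change −0.18, SE 0.51). S100a16 was at 149, 147 and 264 CPM without and 115, 151 and 375 with DSS (0.19, SE 0.41). S100a10 was at 189, 248 and 280 CPM without and 176, 220 and 326 with DSS (0.01, SE 0.26). The first 2 values turned on single libraries. Without colitic replicate 5 they were −0.91 for S100a14 and −0.46 for S100a16, and without untreated replicate 3 S100a14 had 0.53. Without all libraries with high Xist they were −0.21 and −0.12, and with a replicate block −0.24 and −0.16, with 0 called in these fits.
For these genes the highest library of both groups was the one with high Xist, untreated replicate 3 and colitic replicate 5. S100g was also highest in these, at 2.55, 1.26 and 11.2 CPM in untreated and 4.13, 5.72 and 23.4 in colitic colons (1.14, SE 0.80, edgeR adjusted p = 0.555). This value turned on single libraries, being −0.0055 without colitic replicate 5, 2.55 without untreated replicate 3 and 1.40 without both, and S100g was not called in any of these fits. In untreated Tmem173fl/fl colons S100g was likewise highest in the library with high Xist, at 12.7 CPM against 4.85 and 2.30. S100g lies on chromosome X, and the part of what sets these libraries apart was not tested.

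The third comparison set the genotypes side by side without DSS, to ask whether the deletion itself moved these genes. No member was called, as were 0.0% of all genes by edgeR. At an unadjusted p under 0.05 stood 0 of the 9 members and 720 of 24102 genes (2.99%). DESeq2 and limma called 0 members. S100a13 had the lowest unadjusted p of the members at 0.0556, with 18.3, 13.1 and 12.5 CPM in Tmem173fl/fl and 16.4, 18.4 and 24.6 in Tmem173iΔmye colons. For S100a8 and S100a9 the depth sets a limit here, since the 6 untreated libraries held 0 to 24 counts of each, and their log2 fold changes were −0.16 (SE 1.09) and 0.90 (SE 0.88). These values rested on untreated Tmem173fl/fl replicate 3. Without it the fitted values were 5.87 (SE 1.74) for S100a8 and 3.32 (SE 1.05) for S100a9, and without all libraries with high Xist they were 6.23 (SE 1.65) and 3.74 (SE 0.89). They are no bounds, since the other Tmem173fl/fl libraries held 0 or 1 count of each gene, and neither gene was called in these fits. S100a14 had a log2 fold change of 0.31 (SE 0.36) with and −0.41 (SE 0.29) without the libraries with high Xist, uncalled in both, and −0.39 without untreated Tmem173iΔmye replicate 3 alone. S100a9 had 0.31 without untreated Tmem173iΔmye replicate 2. S100g had −0.39 (SE 0.67), but 0.51 without untreated Tmem173fl/fl replicate 3 and −1.79 without untreated Tmem173iΔmye replicate 3. Without all libraries with high Xist its value was −0.89, and S100g was not called in any of these fits.

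The fourth comparison set the genotypes side by side in colitis. Of the 9 members 2 were called, S100a8 and S100a9, both lower in Tmem173iΔmye colons, while 2.81% of all genes were called, 1.99% lower. S100a8 was at 104, 85.9 and 104 CPM in Tmem173fl/fl and 12.4, 26.1 and 5.46 in Tmem173iΔmye colons, and fell by 2.75 on the log2 scale (SE 0.47, edgeR adjusted p = 0.0264). S100a9 was at 164, 98.7 and 159 CPM and at 21.8, 28 and 4.55, and fell by 2.97 (SE 0.56, edgeR adjusted p = 0.0327).
The groups were wide apart for both genes, the highest Tmem173iΔmye library being below the lowest Tmem173fl/fl library. Without colitic Tmem173iΔmye replicate 5, the library with high Xist, they fell by 2.36 (edgeR adjusted p = 0.0156) and 2.51 (edgeR adjusted p = 0.0113). Both calls were lost when any 1 of the 3 colitic Tmem173fl/fl libraries was left out (edgeR adjusted p from 0.0537 to 0.121), and that of S100a9 also without colitic Tmem173iΔmye replicate 2 (0.0811), with the same direction each time. Without that replicate S100a8 had −3.45 and was called, and with a replicate block S100a9 had −2.37 and was called.

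Neutrophil genes were again lower together with the pair. Of the 12 genes 6 were called lower, Cxcr2, Mmp8, Ngp, Camp, Trem1 and Il1r2, and 0 higher. The sum without Ly6g was 264 to 364 CPM in Tmem173fl/fl and 102, 81.7 and 46.1 in Tmem173iΔmye replicates 1, 2 and 5, whereas Ly6g itself was at 95.2 to 224 and 101 to 239 CPM. Per CPM of the 11 genes other than Ly6g, S100a8 and S100a9 came to 0.700 to 0.823 CPM in Tmem173fl/fl and to 0.337, 0.663 and 0.217 CPM in Tmem173iΔmye colons. This ratio, with Ly6g left out after seeing the data, was lower in each Tmem173iΔmye library, by a narrow margin in replicate 2. The part of neutrophil number in the lower level of the pair was not tested. S100a9 stayed above S100a8 per length in each colitic Tmem173iΔmye colon, with ratios of 2.34, 1.42 and 1.11.

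**Figure D4:**
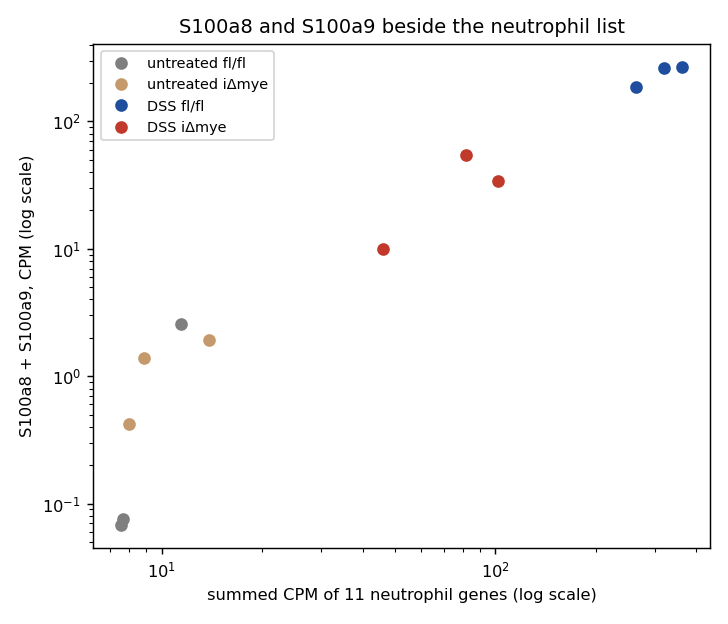
Summed CPM of S100a8 and S100a9 against the summed CPM of the neutrophil list without Ly6g, both on log axes, with 1 point per library. The 3 colitic Tmem173fl/fl libraries lie at 264 to 364 CPM of neutrophil genes, the 3 colitic Tmem173iΔmye libraries at 46.1 to 102, and the 6 untreated libraries at 7.58 to 13.8.

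All 7 other members tested had a positive log2 fold change in this comparison, with a median of 1.20 against 0.02 over all genes, and 0 of them were called. S100a14 had the log2 fold change 2.02 (SE 0.50, edgeR adjusted p = 0.0685), S100a16 had 1.59 (SE 0.42, 0.0820), S100a10 had 1.20 (SE 0.29, 0.0636) and S100g had 3.50 (SE 0.88, 0.0740). For these 4 genes every Tmem173iΔmye library lay above every Tmem173fl/fl library, as S100a8 and S100a9 did in the opposite order, where the groups of 26.8% of all genes did not overlap. Without colitic Tmem173iΔmye replicate 5 the values were 1.27 for S100a14, 0.90 for S100a16, 0.91 for S100a10 and 2.32 for S100g, with edgeR adjusted p from 0.0759 to 0.141, and without colitic Tmem173fl/fl replicate 3 S100g had 4.70 (edgeR adjusted p = 0.0648). The same 4 genes were called under DESeq2, without the filter on low values, in a fit of all 12 libraries and without colitic Tmem173iΔmye replicate 1. With a replicate block S100a14 (1.61, edgeR adjusted p = 0.0212) and S100g (3.55, edgeR adjusted p = 0.00351) were called, and S100a16 and S100a10 were not. Under limma 0 members were called.
S100a11 at 204, 133 and 200 against 198, 193 and 271 CPM differed by 0.30 (SE 0.23, edgeR adjusted p = 0.520), S100a6 by 0.56 (SE 0.34, 0.405) and S100a13 by 0.20 (SE 0.28, 0.726), all with overlapping groups. S100a10 stood to S100a11 as 0.375, 0.480 and 0.508 in FPKM in colitic Tmem173iΔmye colons, above the 0.220 to 0.278 of colitic Tmem173fl/fl and below the 0.837 to 1.13 of untreated Tmem173iΔmye colons. The summed level of the epithelium genes was 9301 to 11125 CPM in colitic Tmem173iΔmye colons, above the 4355 to 7463 in colitic Tmem173fl/fl colons, and that of the fibroblast genes was 2342 to 3449 against 8186 to 10348. The summed levels of blood, myeloid and endothelial markers were lower in colitic Tmem173iΔmye colons too. The red blood cell sum was 23.8 to 29.0 against 152 to 323 CPM, with 5 of 5 genes called lower, and the monocyte and macrophage sum 567 to 783 against 867 to 1239 CPM, with 1 of 8 called lower. The endothelium sum was 136 to 285 against 379 to 525 CPM, with 1 of 4 called lower. None of these sums overlapped between the genotypes, while other sums did. That of colonocyte genes was 2122 to 3062 CPM in colitic Tmem173fl/fl and 2028 to 4723 in colitic Tmem173iΔmye colons. The enteric glia sum was 41.1 to 61.2 and 28.6 to 42.8 CPM in the same order, and the smooth muscle sum 2262 to 2711 and 2002 to 2699. The part of these cell types in the levels of the members was not tested.

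**Figure D5:**
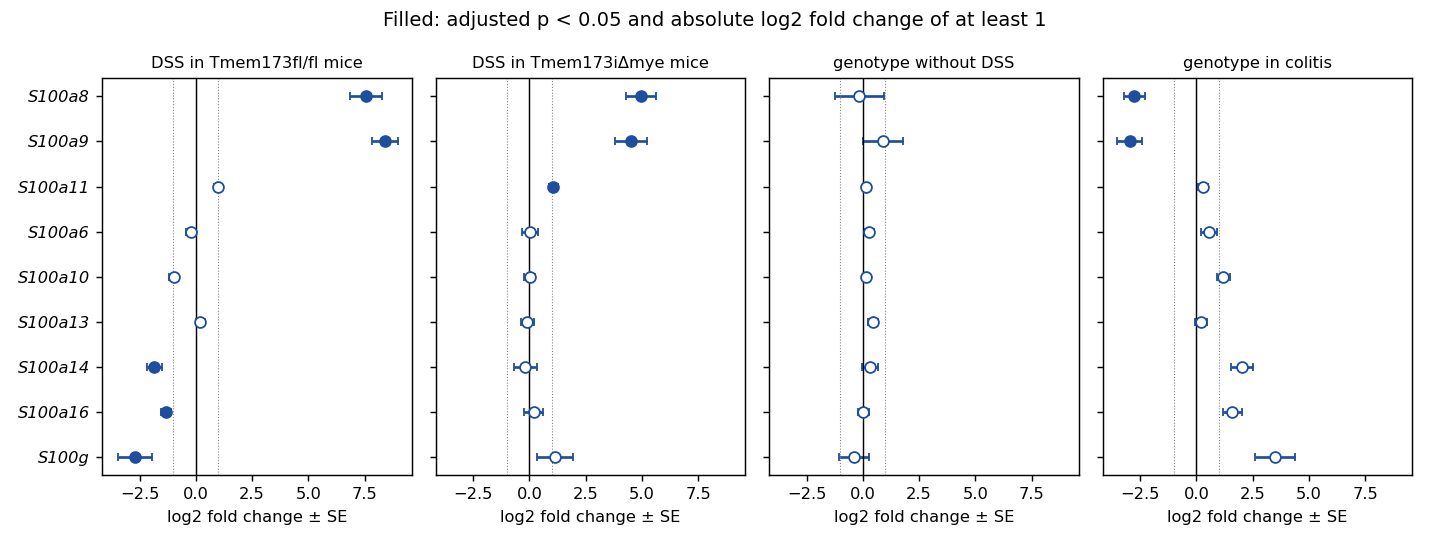
Log2 fold changes of the 9 tested members with their SE in the 4 comparisons, with filled points for called genes and dotted lines at −1 and 1. In colitis S100a8 and S100a9 lie at −2.75 and −2.97 and the 7 other members between 0.20 and 3.50, of which none is called.

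Whether DSS acted differently in the genotypes was tested as an interaction over all 12 libraries. No member was called, against 2.55% of all genes, and 5 of 9 stood at an unadjusted p under 0.05, as did 18.1% of all genes. S100a9 had an interaction of −3.83 (SE 1.12, edgeR adjusted p = 0.0869) and S100a8 of −2.54 (SE 1.25, edgeR adjusted p = 0.303). Both were called when untreated Tmem173fl/fl replicate 3, the source of nearly all untreated counts of its group, was left out (−8.67 and −6.27 for S100a8 and S100a9), and when all libraries with high Xist were (−8.65, edgeR adjusted p = 0.0176, and −6.27, edgeR adjusted p = 0.0055). The untreated Tmem173fl/fl group then held 0 counts of S100a8 and 1 count of S100a9 per library, so these values and calls rest on a group at the floor and are no bounds. With all libraries both genes were called under limma on log2(FPKM + 1), and S100a9 also without the filter on low values. S100g had 3.91 (SE 1.32, edgeR adjusted p = 0.134; 3.22 and 0.186 without the libraries with high Xist), S100a14 had 1.73 (SE 0.71, 0.220), S100a16 had 1.60 (SE 0.55, 0.145) and S100a10 had 1.06 (SE 0.36, 0.133). Without colitic Tmem173iΔmye replicate 5 the values were 0.96 for S100a14, 0.89 for S100a16 and 2.74 for S100g, and without untreated Tmem173iΔmye replicate 3 they were 2.43 for S100a14 and 5.31 for S100g, none of them called. S100a10 and S100a16 were called without colitic Tmem173iΔmye replicate 1, S100a16 and S100g without the filter on low values, and S100g with a replicate block. S100g also moved to 3.02 without untreated and to 5.09 without colitic Tmem173fl/fl replicate 3, and S100a8 to −3.26 without colitic Tmem173iΔmye replicate 2 and S100a9 to −3.23 without untreated Tmem173iΔmye replicate 2, again uncalled. S100a11, called after DSS in one genotype and just under the threshold in the other, had 0.15 (SE 0.27, edgeR adjusted p = 0.815), so a difference between the genotypes was not shown.

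Likeness of profiles was measured over the 12 libraries as the root mean square difference of log2(CPM + 0.5), each gene centred on its own mean, among 14557 genes with a symbol and a mean FPKM of at least 1. S100a8 and S100a9 were each other's nearest gene (0.35, where the SD of their own profiles was 3.08 and 3.22). Next came Serpina3m, an acute phase serine protease inhibitor (0.55 and 0.58), then Cxcl2, a neutrophil chemokine, for S100a8 (0.63) and Cemip, which takes part in the breakdown of hyaluronan, for S100a9 (0.63). S100a14 was nearest to Pdzk1ip1 (0.31), the protease gene Tmprss2 (0.34) and its neighbour S100a16 (0.34). S100a16 was nearest to the peroxiredoxin gene Prdx6 (0.21), followed by Gm3336 (0.22) and Aldh1l1 (0.23). S100g was nearest to Gm45397 (0.58), the tight junction gene Cldn8 (0.66) and the nucleoside transporter gene Slc28a3 (0.68). S100a10 was nearest to Cmas (0.17), S100a11 to Pnrc1 (0.19), S100a6 to Abhd11os (0.22) and S100a13 to Rpl31-ps8 (0.14). The points share libraries and, for genes of the same cells, their source, and the likeness is a description.

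The receptors and partners of S100 proteins gave a mixed picture. Of the 19 genes of this list, 7 were called higher and 1 lower after DSS in Tmem173fl/fl mice (median 0.22, against 0.03 over all genes). Ager, which encodes RAGE, was at 0.565 ± 0.0985 FPKM in untreated and 2.19 ± 0.409 in colitic colons (log2 fold change 1.97, SE 0.31, edgeR adjusted p = 0.00087). Cd33, a myeloid surface receptor that can bind S100a9, went from 0.613 ± 0.242 to 7.32 ± 1.44 FPKM (3.58, edgeR adjusted p = 1.2e-05). Mcam, an adhesion receptor that can bind S100a8 and S100a9, rose by 1.67, Anxa6 by 1.32, Cd36 by 1.33, Cd14 by 1.17 and Anxa5 by 1.13. Cacybp, the partner of S100a6, fell by 1.17 (edgeR adjusted p = 0.00038).
Tlr4, the other main receptor of S100a8 and S100a9, was at 5.64 ± 0.974 and 7.22 ± 1.07 FPKM (0.37, edgeR adjusted p = 0.124). Among the partners with the highest levels, Anxa2, which holds S100a10, was at 134 ± 22.3 and 155 ± 43.9 FPKM (0.22, edgeR adjusted p = 0.476), while Bsg was at 322 ± 43.7 and 217 ± 27.8 FPKM and Anxa1 at 75.8 ± 17.6 and 77.7 ± 18.8. Myh9, the non-muscle myosin bound by S100a4, had 0.39 (edgeR adjusted p = 0.106).
In Tmem173iΔmye mice 1 of the 19 was called after DSS, Cd33 (2.20, SE 0.32, edgeR adjusted p = 0.0092). In colitis 1 of the 19 differed by genotype, Mcam, at 126, 115 and 112 CPM in Tmem173fl/fl and 66.1, 55.9 and 52.6 in Tmem173iΔmye colons (−1.02, SE 0.17, edgeR adjusted p = 0.0230). Ager had −1.15 (SE 0.31, edgeR adjusted p = 0.0884) and Cd33 had −1.27 (SE 0.29, edgeR adjusted p = 0.0543) there. Without DSS 0 of the 19 was called, with 1 at an unadjusted p under 0.05.

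Genes of vitamin D dependent calcium uptake, with which S100g works, were tested as far as they passed the filter, 8 of 9, since Cyp24a1 did not. After DSS in Tmem173fl/fl mice 3 were called lower and 2 higher. Trpv6, the apical calcium channel, had 296, 268 and 368 counts in untreated and 2, 4 and 2 in colitic Tmem173fl/fl colons, a log2 fold change of −7.03 (SE 0.31, edgeR adjusted p = 6.1e-07). Vdr, the vitamin D receptor, went from 74.3 ± 5.05 to 26.0 ± 3.44 FPKM (−1.50, edgeR adjusted p = 5.5e-05), and Cldn15 fell by 1.11 (edgeR adjusted p = 0.0207). The call of Cldn15 was lost without untreated replicate 2 (−0.75), untreated replicate 3 (edgeR adjusted p = 0.0505) or colitic replicate 2 (−0.86), and under limma with either pseudocount. Slc8a1, a sodium-calcium exchanger also expressed in muscle, rose by 1.25, and Calb1 rose by 3.26 from 0.00844 to 0.101 FPKM, which is near the floor. Atp2b1, the basolateral calcium pump, had −0.55 (edgeR adjusted p = 0.0338), under the fold threshold, and Cldn2 had −0.62 (edgeR adjusted p = 0.273).
In colitic Tmem173iΔmye colons Trpv6 had 29, 11 and 537 counts, the last of them in replicate 5, where S100g was highest too. In colitis Trpv6 had a log2 fold change between the genotypes of 6.26 (SE 1.51, edgeR adjusted p = 0.0644), and without replicate 5 one of 3.16 (SE 0.70, edgeR adjusted p = 0.0682). It was called without replicate 1 (6.75, edgeR adjusted p = 0.0446), under DESeq2, without the filter on low values, in a fit of all 12 libraries and with a replicate block (2.96), and not under limma (3.03 and 1.29). By the main test, edgeR with TMM scaling between the groups compared, 0 of the 8 genes was called. After DSS in Tmem173iΔmye mice Trpv6 had −0.63 (SE 1.09, edgeR adjusted p = 0.839) with all libraries. It was called lower without colitic replicate 5 (−3.71, edgeR adjusted p = 0.0178) and with a replicate block (−3.03, edgeR adjusted p = 8.7e-05), and without the libraries with high Xist it had −3.32 (edgeR adjusted p = 0.114). By the main test Cldn15 alone was called (−1.92, SE 0.37, edgeR adjusted p = 0.0267). This call was lost without any 1 of the untreated libraries or colitic replicate 1 (edgeR adjusted p from 0.0968 to 0.163) and under limma with either pseudocount.

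Of the other S100 genes in a list of 6, 4 were tested and 0 was called in any comparison. S100a1, a calcium sensor best known from muscle, was the one with substantial expression, at 61.3, 55.5 and 59.0 CPM in untreated and 26.5, 29.9 and 30.9 in colitic Tmem173fl/fl colons (log2 fold change −0.94, SE 0.13, edgeR adjusted p = 0.00037, under the fold threshold). In colitic Tmem173iΔmye colons it was at 30.4, 59.9 and 76.7 CPM. S100b, the glial member, was at 0.877 to 1.36 CPM in untreated and 1.84 to 2.79 in colitic Tmem173fl/fl colons (0.96, SE 0.36, edgeR adjusted p = 0.0652). The summed level of enteric glia genes was 10.7 to 12.3 and 41.1 to 61.2 CPM in the same groups. The part of glial cell number in the level of S100b was not tested.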

How the data were processed

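Groups and replicate numbers were taken from the sample titles. Colitic Tmem173iΔmye libraries carried the numbers 1, 2 and 5. Nothing in the labels states separate litters or cages, so p-values measure the spread between these mice. The authors deposited whole-number counts and FPKM per gene. Per the submitters' processing notes, CASAVA 1.8, fastp, HISAT2 2.0.5, featureCounts 1.5.0-p3 and DESeq2 1.20.0 were used with GRCm38. The annotation release and the strand setting are not given in the sources used here. The table also held 25 columns of the authors' comparisons, which were not used.

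Genes with at least 0.1 FPKM in at least 3 libraries, 24102 in all, were tested on the deposited counts with edgeR 4.0.16 (quasi-likelihood test, TMM scaling, R 4.3.3) between the groups compared, and p-values were adjusted over all of them by Benjamini-Hochberg. The SE is the log2 fold change divided by the square root of F. The scripts were tested on simulated data. DESeq2 1.42.0 and limma 3.58.1 on log2(FPKM + 0.1) and log2(FPKM + 1) were alternatives, beside other filters and scalings, thresholds, a fit of all 12 libraries, a replicate block and leaving out each library. Named genes were all members and their nearest genes. Of the latter, 3 were named for S100a8, S100a9, S100a14, S100a16 and S100g, and 1 for each other tested member. Of each list, up to 4 genes with the highest mean FPKM and up to 4 called with the lowest p were named. Ager, Tlr4, Anxa2, Cacybp, Vdr and Trpv6 were named as well, with other called genes added. The members and lists were chosen with earlier results of these data known. Counting error alone limits genes with few counts.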

Additional observations from a re-analysis of the deposited data

Results flagged for a closer look

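The effect of DSS on Mcam, the adhesion receptor, differed between the genotypes by the interaction test, with a log2 difference of −1.12 (edgeR adjusted p = 0.00885), Tmem173iΔmye minus Tmem173fl/fl. Mcam was called in 21 of 21 alternatives, with values from −1.22 to −1.07. The effect on Anxa5, a membrane-binding annexin, differed by −0.83 (edgeR adjusted p = 0.0483), under the fold threshold, and its adjusted p stayed under 0.05 in 6 of 21 alternatives, ranging from 0.00286 to 0.138. For Mcam the colitic libraries lay above the untreated ones in both genotypes, and the difference was called in Tmem173fl/fl mice (1.67) and not in Tmem173iΔmye mice (0.48, edgeR adjusted p = 0.235). Anxa5 was at 78.2 ± 3.50 FPKM in colitic Tmem173fl/fl and 50.4 ± 2.78 in colitic Tmem173iΔmye colons, against 36.1 ± 4.58 and 42.6 ± 5.43 without DSS (SD, n = 3). In the same interaction test 2 of 4 endothelium genes (median −1.32) and 5 of 7 fibroblast genes (median −1.72) were called lower, and 0 of either list higher. The part of these cell types in the values of Mcam and Anxa5 was not tested.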

How the results depend on the processing

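Over 180 alternatives of the 10 called differences of members, the direction never turned, and the call was kept in 146 and lost in 34. Among the differences not called, the sign turned in 45 of 674 refits. After DSS in Tmem173fl/fl mice the 5 calls became 4 to 6 when 1 library was left out, and the genes called changed: over 18 alternatives S100a8, S100a9, S100a14 and S100a16 were called in all, S100g in 13 and S100a10 in 9. After DSS in Tmem173iΔmye mice the 3 calls became 0 under limma with either pseudocount and 0 to 3 when 1 library was left out. Between the genotypes in colitis the 2 calls became 6 without the filter on low values, under DESeq2, in a fit of all 12 libraries and at an unadjusted p, 0 under limma with either pseudocount, and 0 to 6 when 1 library was left out. The interaction gave 3 calls without the filter, 2 under limma on log2(FPKM + 1), 2 without the libraries with high Xist (chosen after seeing the data), 5 at an unadjusted p, and 0 to 2 when 1 library was left out. Without DSS the count stayed at 0 throughout. The filter of edgeR removed S100a8 there. In the labels same-numbered libraries share only a number. Their deviations correlated by −0.17 to 0.18, and those of libraries with different numbers by −0.43 to 0.30. Deviations from a mean of 3 libraries cannot show whether the numbers carry anything shared. The replicate block gave 4 calls between the genotypes in colitis and 1 in the interaction, and it moved the other counts by at most 1.5 times. Of 27 nearest genes 11 were named again with profiles scaled to unit SD. The cause of these changes was not tested. Depth limits S100a8 and S100a9 in untreated colons and S100a4 throughout. It limits S100g in untreated colons and most in colitic Tmem173fl/fl colons, with 5, 12 and 32 counts.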
